A study of Mus musculus with 2 samples.

Results

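The miR-23/27/24 genes form 2 paralogous clusters of microRNA hairpins, and they were followed here in the liver of the mouse embryo. The 6 genes are Mir23a, Mir27a and Mir24-2 of the miR-23a cluster and Mir23b, Mir27b and Mir24-1 of the miR-23b cluster. They were chosen by name, and 5 of the 6 had a row of their own among the 1973 microRNA genes counted. Small RNA below 30 bases was sequenced from healthy liver tissue of embryos of the strain B6NCrl at day 13.5, as 2 libraries labelled biological replicates 1 and 2. Each library came from its own biosample of pooled male and female embryos, the labels give both the same donor identifier, and no treatment or second group was named. The whole organ was used, so a level is a sum over its cell types, and fewer cells of a type cannot be told apart from less RNA per cell.

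A microRNA gene is transcribed into a long precursor from which a hairpin is cut, and each hairpin yields a 5p and a 3p arm of which one usually enters the silencing complex. Bases 2 to 8 of an arm, the seed, choose most of its target messenger RNAs. In each miR-23/27/24 cluster the 3 hairpins lie close together and can be made from a shared primary transcript. These microRNAs are known for roles in endothelial cells and vessel growth, in blood cell development and in lipid metabolism of the liver. The 3p arms are the ones for which the genes are best known.

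The 3p arms are shown first because they differ little or not at all between the clusters. They are mature sequences from RefSeq on build GRCm38.p6, written 5′ to 3′ with the seed in capitals.
miR-23a-3p: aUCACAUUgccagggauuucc
miR-27a-3p: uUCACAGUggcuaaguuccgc
miR-27b-3p: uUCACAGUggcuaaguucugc
miR-24-3p: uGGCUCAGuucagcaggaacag
miR-27a-3p and miR-27b-3p share their first 18 bases and differ by 1 substitution in 21 (C19U, counted from the 5′ end, with the base of miR-27a-3p first). A read that ends before that base carries the same letters from either gene. miR-24-3p is identical over all 22 bases in Mir24-2 and Mir24-1, so no read of that arm alone can be given to one of them. miR-23b-3p is named only.

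The 5p arms separate the paralogs more clearly, and for the miR-24 genes they are the part of the hairpin that can be told apart.
miR-23a-5p: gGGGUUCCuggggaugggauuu
miR-23b-5p: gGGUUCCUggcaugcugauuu
miR-27a-5p: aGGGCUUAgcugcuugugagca
miR-27b-5p: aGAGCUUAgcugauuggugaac
miR-24-2-5p: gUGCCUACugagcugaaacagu
miR-24-1-5p: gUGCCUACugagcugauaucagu
The miR-24 5p arms share their first 16 bases and their seed, and differ after that. The 5p arms of Mir27a and Mir27b share their first 2 bases before the first difference, and differ at 8 of 22 positions. Those of Mir23a and Mir23b share their first 3 bases, and their seeds are shifted by 1 base.

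The longest run of bases common to the whole hairpins of Mir24-2 and Mir24-1 is 28 bases. It is 20 bases between Mir23a and Mir23b and likewise 20 bases between Mir27a and Mir27b. The deposited tables leave reads that mapped to several places out of every gene row, and these were 36.7% of all reads in replicate 1 and 32.0% in replicate 2. How many of them came from the 6 genes is not given in these tables.

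The miR-23a cluster lies on the plus strand of chromosome 8 (mm10), with Mir23a at chr8:84208518-84208592, Mir27a at chr8:84208672-84208758 and Mir24-2 at chr8:84208815-84208921, a span of 404 bases. In GENCODE M21, Mir23a and Mir27a overlap no other gene. Mir24-2 overlaps an exon of the long non-coding gene Gm26532 and, on the minus strand, the microRNA gene Mir3074-2. The miR-23b cluster lies on the plus strand of chromosome 13, with Mir23b at chr13:63300484-63300557, Mir27b at chr13:63300712-63300784 and Mir24-1 at chr13:63301208-63301275, a span of 792 bases. All 3 lie in the protein-coding gene 2010111I01Rik on the same strand and, on the other strand, in introns of Fancc, a DNA repair gene. Mir23b lies in an intron of 2010111I01Rik, while Mir27b and Mir24-1 also touch exons of some of its non-coding or nonsense-mediated decay transcripts.

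**Figure D1:**
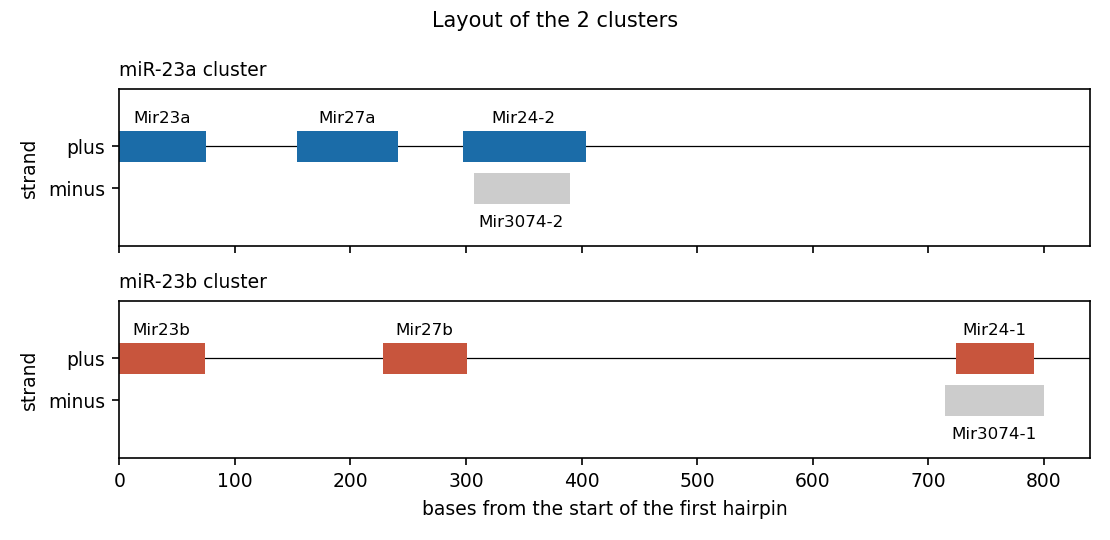
Hairpins of the miR-23a cluster (top, blue) and the miR-23b cluster (bottom, red) by distance in bases from the start of the first hairpin, with the genes annotated on the minus strand in grey. The miR-23a cluster spans 404 bases and the miR-23b cluster 792 bases, in which 423 bases separate Mir27b from Mir24-1.

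Counts on the strand of annotated genes came to 2607403 in replicate 1 and 4286742 in replicate 2, and levels are given as CPM, counts relative to these totals times 1000000. Reads are about as long as a mature arm, so counts were not divided by the length of the hairpin. At least 10 counts in each library, the limit for calling a gene detected, were reached by 367 genes. Markers of liver cells and blood formation were present, at unlike levels. Mir122, the hallmark microRNA of hepatocytes, stood at 79994 ± 213 CPM (SD, n = 2). Among other hepatocyte markers, Mir192 stood at 2771 ± 195 CPM, Mir194-2 at 1128 ± 129 CPM and Mir194-1 at 8.12 ± 1.72 CPM. Of red cell precursors, Mir451a stood at 18546 ± 11026 CPM, Mir144 at 6139 ± 377 CPM and Mir486 at 827 ± 10.1 CPM. The 3 counted leukocyte markers were Mir223 at 10092 ± 100 CPM, Mir155 at 162 ± 37.6 CPM and Mir150 at 27.6 ± 5.41 CPM. Markers of other cells were mixed. For smooth muscle and other mesenchyme, Mir143 stood at 18031 ± 716 CPM, Mir214 at 2023 ± 141 CPM and Mir145a at 287 ± 3.51 CPM. Mir199a-1, at 1.81 CPM, was not detected, but it shares an identical arm with Mir199a-2, which stood at 22.2 ± 6.49 CPM. Of 4 counted striated muscle marker genes 1 was detected and 2 had no count. The detected one was Mir206, at 871 CPM in replicate 1 and 522 CPM in replicate 2. The part of these cells in the levels of the miR-23, miR-27 and miR-24 genes was not tested. Of 5 counted neural marker genes none was detected and 4 had no count. A count of 0 or a low count does not limit a level where a gene has copies. The labels say that the libraries come from separate biosamples, but p-values below compare only these 2 libraries.

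All 5 miR-23/27/24 genes with a row were detected, and together they held 2.15% ± 0.101 of counts (SD, n = 2). The miR-23 genes made up nearly all of that. Mir23a had 13706 CPM in replicate 1 and 12215 CPM in replicate 2, from 35738 and 52361 counts, and took place 22 of the 1973 genes by mean. Mir23b had 7344 and 7468 CPM, from 19148 and 32013 counts, and took place 39. Mir23a lay above Mir23b in both libraries, and the levels of the genes did not overlap.

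The miR-27 genes, whose 3p arms are known as repressors of fat cell formation and of lipid genes, were more than 1 order of magnitude lower within the same clusters. Mir27a had 253 and 228 CPM, from 660 and 976 counts, and took place 160. Mir27b had 720 and 685 CPM, from 1878 and 2935 counts, and took place 112. Here the gene of the miR-23b cluster was the higher in both libraries.

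Mir24-2 had 230.1 CPM in replicate 1 and 226 CPM in replicate 2, from 600 and 969 counts, and took place 162. Its level lay next to that of Mir27a, and the order of these neighbours was not set: their log2 ratio, Mir27a over Mir24-2, was 0.14 in replicate 1 (exact Clopper-Pearson 95% interval, counting error only, -0.02 to 0.30) and 0.01 in replicate 2 (-0.12 to 0.14). From high to low, the means ran Mir23a, Mir23b, Mir27b, then Mir27a and Mir24-2. The first 3 steps of this order were larger than the spread between the libraries.

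**Figure D2:**
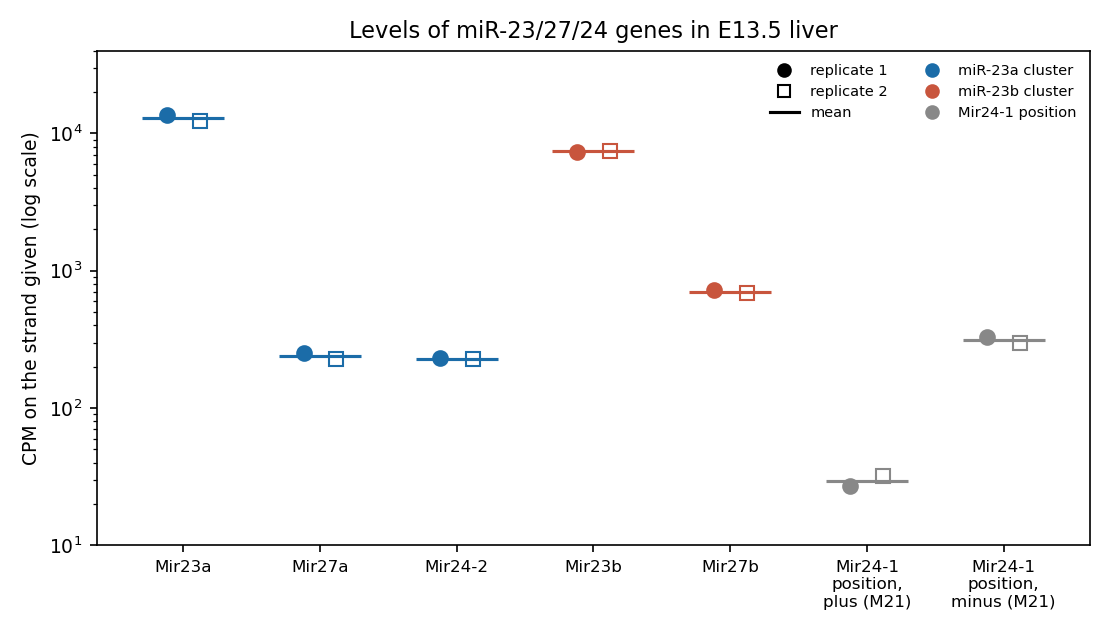
CPM of each gene in replicate 1 (filled circles) and replicate 2 (open squares) on a log scale, with a bar at the mean; blue is the miR-23a cluster, red the miR-23b cluster, and grey the reads at the position of Mir24-1, by strand. Mir23a and Mir23b stand at 7344 CPM or more in both libraries, and all the others at 720 CPM or less.

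**Figure D3:**
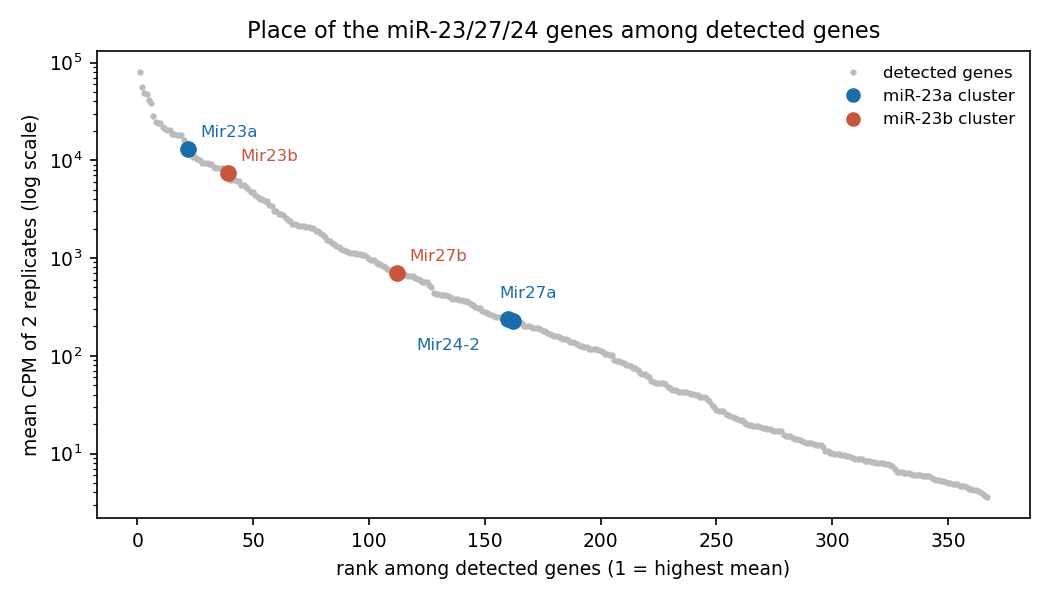
Mean CPM on a log scale against rank for the 367 detected genes (grey), with the 5 miR-23/27/24 genes coloured by cluster. Mir23a and Mir23b lie at places 22 and 39, Mir27b at 112, and Mir27a and Mir24-2 side by side at 160 and 162.

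Mir24-1 has no row of its own in the tables used here, and its position on chromosome 13 is counted under ENSMUSG00000092741, which M21 names Mir3074-1 and places on the minus strand at chr13:63301199-63301283, over Mir24-1. In each library the 3 deposited count columns, each taken with all reads not given to a gene, added up to the same total. It was 7671547 in replicate 1 and 12554684 in replicate 2. A counted row with reads, if removed, would leave the columns unequal. The totals cannot show reads of a gene that was not counted, since these could be among the reads not given to a gene. The row at the position of Mir24-1 held 854 and 1278 counts on the strand of the counted gene and 70 and 138 on the opposite strand. By the strand in M21, the opposite-strand reads are those in the sense of Mir24-1, at 26.8 CPM in replicate 1 and 32.2 CPM in replicate 2. The other reads stood at 328 and 298 CPM. The deposited identifier has version 1 and M21 holds version 2, and the strand used in counting is not stated in the tables, so which of the 2 sets belongs to Mir24-1 could not be settled. Mir23b and Mir27b also have a later version in M21, with at most 1 read in a library opposite the counted gene. Of 47 such rows with at least 10 counts over both strands in each library, 46 had most reads on the strand of the counted gene. The row at Mir24-1 was among them. These columns follow the strand used in counting, so they cannot show whether that strand later changed.

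The comparison of the miR-24 copies turned on that strand. Read by M21, Mir24-2 exceeded Mir24-1 by 2.96 ± 0.20 in log2 (SD, n = 2), from 600 against 70 counts in replicate 1 and 969 against 138 counts in replicate 2. With the strands the other way round, Mir24-2 lay below Mir24-1 by a log2 ratio of -0.45 ± 0.08, from 600 against 854 counts and 969 against 1278 counts. Each reading had the same direction in both libraries, and all exact 95% counting intervals left out 0. The direction between the copies is therefore not established by these counts. Nor do they hold reads of miR-24-3p that mapped to both copies, so neither row is a level of the mature miR-24-3p.

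The genes annotated opposite the miR-24 hairpins were looked at for the same reason. Mir3074-2, opposite Mir24-2, has no row of its own, and the reads opposite Mir24-2 were 2 and 3, at or under the 3 counts that a count of 0 allows. At the position of Mir24-1 the smaller set made up 7.58% of reads in replicate 1 and 9.75% in replicate 2. Of the 377 genes with at least 10 counts in each library on either strand, 324 had no opposite-strand read in either library.

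As sums over the genes with a row, the miR-23a cluster reached 13429 ± 1076 CPM and the miR-23b cluster 8108 ± 62.7 CPM (SD, n = 2). The log2 ratio of the clusters was 0.82 in replicate 1 (95% counting interval 0.79 to 0.84) and 0.64 in replicate 2 (0.62 to 0.66), a mean of 0.73 ± 0.13, or 1.65-fold. The miR-23a cluster was the higher in both libraries. An exact permutation test over 2 libraries cannot go below p = 0.5 (two-sided), so none is given. Adding either set of reads at the position of Mir24-1 to the miR-23b cluster left the ratio at 0.72 or 0.67.

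The paralogous pairs did not share this direction. Mir23a over Mir23b was 0.90 in replicate 1 and 0.71 in replicate 2 on the log2 scale, a mean of 0.81 ± 0.13 (SD, n = 2). Mir27a over Mir27b was -1.51 and -1.59, a mean of -1.55 ± 0.06, so that Mir27a held 26.0% of the counts of its pair in replicate 1 (exact 95% interval 24.3% to 27.8%) and 25.0% in replicate 2 (23.6% to 26.3%). The miR-23a cluster thus gave most of the miR-23 counts, at 63.6% ± 2.16, and the miR-23b cluster most of the miR-27 counts. The pairs also share long stretches of their hairpins, and the part of reads left out as mapping to both genes was not tested.

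**Figure D4:**
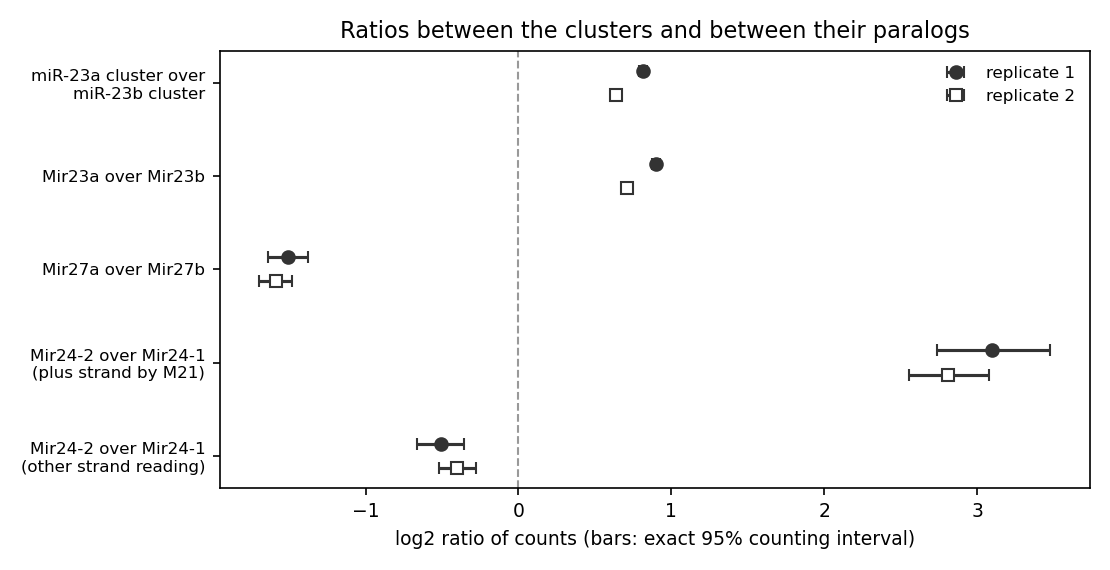
Log2 ratio of counts in replicate 1 (filled circles) and replicate 2 (open squares), with exact 95% counting intervals, for the clusters and for each paralogous pair, the last pair read by either strand at the position of Mir24-1. Mir23a over Mir23b lies above 0, Mir27a over Mir27b below 0, and Mir24-2 over Mir24-1 on either side by the strand taken.

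Within each cluster the first hairpin led by far in the counts of the gene rows. Mir23a made up 96.5% ± 0.124 of the miR-23a cluster, with Mir27a at 1.79% ± 0.00943 and Mir24-2 at 1.70% ± 0.115 (SD, n = 2). Mir23b made up 91.3% ± 0.377 of the counts of Mir23b and Mir27b. The log2 ratio of Mir23a over Mir27a was 5.75 ± 0.01, or 53.9-fold, and that of Mir23b over Mir27b was 3.40 ± 0.07, or 10.5-fold. The gap between miR-23 and miR-27 was wider in the miR-23a cluster by 2.41 in replicate 1 and 2.30 in replicate 2 on the log2 scale, a mean of 2.35 ± 0.08. Any reads of miR-24-3p that mapped to both miR-24 copies are in no row, so the share of Mir24-2 leaves them out. Ligation and amplification differ between small RNA sequences, and their part in ratios between different hairpins was not tested.

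The clusters were set beside other runs of hairpins. Among 43 runs of at least 2 detected genes on the same strand, each within 10 kb of the next, the median share of the leading gene was 75.9%. The miR-23a cluster, at 96.5%, was exceeded by 11 of them, and the miR-23b cluster, at 91.3%, by 15. By the log2 ratio of the highest over the lowest gene, with a median of 4.31, the miR-23a cluster at 5.83 was exceeded by 14 runs and the miR-23b cluster at 3.40 by 27. In the growth-promoting miR-17-92 polycistron, Mir17 made up 54.4%, and in its paralog miR-106b-25, Mir93 made up 60.8%. Their highest over lowest gene gave log2 ratios of 10.1 and 4.26. In other paralogous comparisons, Mir15a made up 57.8% with Mir16-1, and Mir15b 73.9% with Mir16-2. Mir29a made up 99.0% with Mir29b-1, and Mir29c 99.5% with Mir29b-2. The miR-23a and miR-23b clusters stood closer together than all these, with log2 ratios of 0.82 and 0.64 in replicates 1 and 2. For miR-17-92 over miR-106b-25 they were 1.54 and 1.64, for the miR-15/16 genes 1.82 and 1.86, and for the miR-29 genes 3.29 and 2.99. The runs differ in their number of genes and in how many have copies, and these shares are a description.

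How far the libraries differed was read from the split of each gene's counts between them, by an exact binomial test (two-sided, Benjamini-Hochberg adjustment over 711 genes with any count). It called 20.1% of these genes at an adjusted p under 0.05, and 40.9% when run over the 367 detected genes alone. Of the 5 miR-23/27/24 genes 1 was called, Mir23a, at a log2 difference of 0.17, replicate 1 over replicate 2 (adjusted p = 3.94e-61, exact test). That is 1.12-fold, below the median difference of 1.13-fold over the 367 detected genes, and it was called on many counts. Mir27a at 0.15 (adjusted p = 0.143, exact test), Mir27b at 0.07, Mir24-2 at 0.03 and Mir23b at -0.02 in log2 did not pass. With library sizes from TMM or from DESeq2, Mir23b passed as well, lower in replicate 1 (adjusted p = 0.00028 and 0.00082, exact test), and these settings called 19.0% and 19.1% of all genes. The test covers counting error only and compares these libraries, not conditions.

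The genes nearest in level, by Euclidean distance of log2(CPM + 1) over the 2 libraries, place these values among better known microRNAs. Mir23a lay nearest to Mir30a (12889 ± 905 CPM, SD, n = 2) and Mir369 (14556 ± 904 CPM), and Mir23b to Mir18 (7914 ± 303 CPM) and Mir10a (8249 ± 386 CPM). Mir27b lay nearest to Mirlet7b (719 ± 10.7 CPM) and Mir503 (690.1 ± 15.4 CPM). Mir27a lay nearest to Mir1306 and Mir700, and Mir24-2 to Mir146 and Mir874, all between 222 and 251 CPM. With 2 libraries this likeness is one of level alone.

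Other microRNAs with roles in endothelium and vessel growth gave a frame for these levels. The list was chosen with earlier results of these data known, so it is a description only. Of 21 such genes listed, 18 had a row and 16 were detected, beside 18.6% detected of all 1973 genes. Their median was 2799 CPM over the 18 rows and 6054 CPM over the detected ones, against 150.03 CPM for all detected genes. Mir23a stood above 13 of the 18, at 12960.5 ± 1055 CPM (SD, n = 2), and below Mir126a, which is enriched in endothelium, at 56024 ± 2091 CPM. Mir23b, at 7406 ± 87.8 CPM, lay below 8 of them and above Mir296 at 4195 ± 564 CPM. Mir27b lay close to Mir503, and Mir27a and Mir24-2 below Mir222 at 259 ± 9.46 CPM. These genes are expressed by several cell types, and the cells of origin of the miR-23/27/24 counts were not tested.

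The seeds of the miR-27 and miR-24 3p arms were looked up among the 1738 mature arms in the RefSeq table. The miR-27 seed UCACAGU was found in 2 arms, miR-27a-3p and miR-27b-3p, whose genes summed to 943 ± 43.2 CPM (SD, n = 2). The miR-24 seed GGCUCAG was found in 6 arms, of which 4 belong to other genes, Mir5124b, Mir6369, Mir6410 and Mir6413. Those 4 had no count in either library, which allows up to 1.15 CPM each in replicate 1 and 0.700 CPM in replicate 2 for reads that map to 1 place.

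Genes whose mature arm is also encoded elsewhere, as in the miR-24 pair, had a lower median level. Of the 367 detected genes 315 were matched to the RefSeq table, and 39 of them had an arm with an identical copy at another locus. Their median was 52.6 CPM, against 173 CPM for the 276 without one. With a copy taken as a shared word of 20 bases, the medians were 89.1 and 168 CPM, and all 6 miR-23/27/24 genes then counted as having a copy. Of the 869 genes of 1973 that matched the table, 47.0% of the 83 with an identical arm elsewhere were detected and 35.1% of the 786 without one, a difference with no test. Mir24-2, at 228 ± 2.88 CPM (SD, n = 2), lay above the median of its class. Mir23b was classed by its 5p arm alone. Such genes formed 33 pairs in which both had a row, and 8 of these pairs had no count in either gene. In the 15 pairs with both genes detected, the higher stood over the lower by 1.06-fold to 139-fold, with a median of 5.80-fold. Among the 5 pairs with the highest gene, Mir92-1 had 8365 ± 442 CPM against 266 ± 22.8 CPM for Mir92-2, and Mir16-1 had 6256 ± 183 CPM against 1078 ± 101 CPM for Mir16-2. The other 3 pairs were Mir194-2 over Mir194-1, Mir181a-1 over Mir181a-2 and Mir181b-2 over Mir181b-1, with the higher gene between 277 and 1128 CPM and the lower between 8.12 and 54.9 CPM. The most even pair, chosen after its values were seen, was Mir125b-2 at 180.2 ± 5.40 CPM over Mir125b-1 at 169.6 ± 0.383 CPM. The share of reads of the common arm that these rows miss was not tested.

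**Figure D5:**
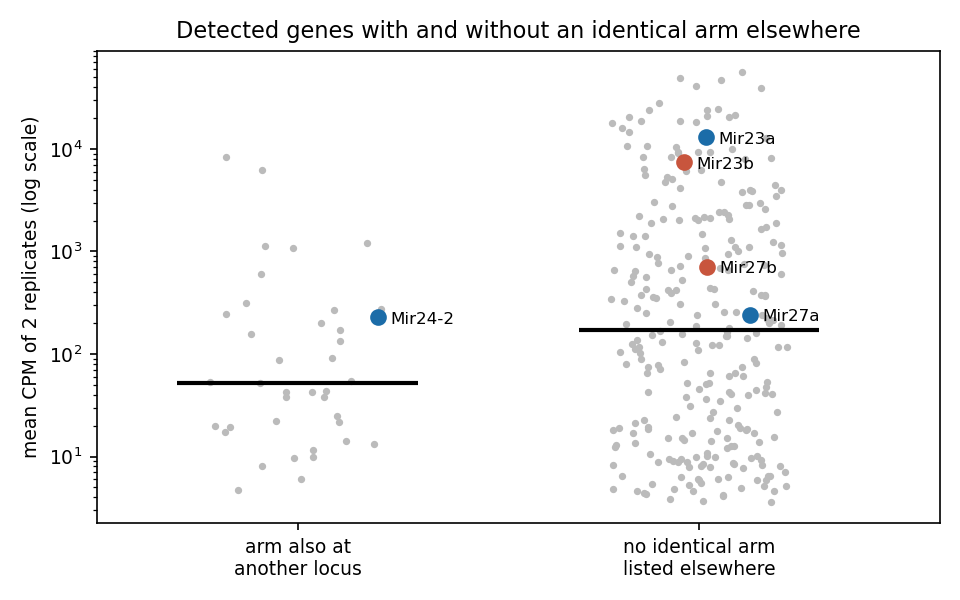
Mean CPM on a log scale of detected genes with an arm identical to one at another locus (left, 39 genes) and without one listed (right, 276 genes), each gene a point and the black bars the medians. Mir24-2 lies above the median of the left class, and Mir23a, Mir23b, Mir27b and Mir27a lie above that of the right class.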

How the data were processed

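For each library the authors deposited 1 table of raw read counts for every gene, on build mm10 with annotation M4, per the accompanying file lists. Which aligner and counter were run is not given in the sources used here. The columns of a table give counts on both strands, on the strand of the gene and on the opposite strand, and the second of these was used. Rows for unmapped, several-place, outside-gene and ambiguous reads were left out of totals, and unmapped reads were 19.6% and 24.2% of all reads in replicates 1 and 2. Identifiers were matched to GENCODE M21 without their version (1894 of 1973). Levels are mean ± SD of CPM. Shares carry exact Clopper-Pearson 95% intervals, which cover counting error only. Floors of 3 counts do so too. Sequences came from RefSeq tables on GRCm38.p6. The binomial test was tested on simulated Poisson counts, which vary by counting error alone, so that run does not cover other variation between libraries. Python 3.11.15, scipy 1.17.1, edgeR 4.0.16 (TMM) and DESeq2 1.42.0 (size factors) were used. The genes named were the 6 listed, those opposite them, the 2 nearest in level to each, those sharing a seed, and the 5 highest pairs of identical arms. The genes, lists and tests were chosen with earlier results of these data known. The alternatives were both strands, other scalings and limits, division by length, each library alone, another rule for copies and, chosen after seeing the data, the other strand at the position of Mir24-1.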

Additional observations from a re-analysis of the deposited data

Results flagged for a closer look

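A signal appeared outside the gene-strand counts, at the position of Mir24-1. The reads opposite the row counted there were 70 in replicate 1 and 138 in replicate 2, above the 3 counts that a count of 0 allows. The rows of the other 5 genes had at most 3 such reads in a library. Such reads were not particular to this position. Mir142b had 122527 and 194599 and Mir299b 12220 and 19253 in replicates 1 and 2. Of the 377 genes with at least 10 counts in each library on either strand, 324 had none in either library. No group had enough libraries to look for one that stands apart.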

How the results depend on the processing

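The log2 ratio of the clusters, that of Mir23a over Mir23b and that of Mir27a over Mir27b kept their directions in the alternatives run on them. For the last 2 this says little: counting both strands added at most 1 read, and with 2 libraries each one alone lies less than 1 SD from their mean. Without a library, the 3 ratios ran from 0.64 to 0.82, from 0.71 to 0.90 and from -1.59 to -1.51. The ratio of Mir24-2 over Mir24-1 was 2.96 by the strand in M21. It turned to -0.45 with the other strand at that position and to -0.58 with both strands. By the strand in M21 it moved to 2.30 when counts were divided by length. Without a library it ran from 2.81 to 3.10. With both strands counted, the levels of Mir23a, Mir27a, Mir24-2, Mir23b, Mir27b and Mir24-1 were 11607, 215, 205, 6632, 629 and 307 CPM, since the total grew and, for Mir24-1, the other strand joined. That strand alone gave 313 CPM. Over all reads of the tables, the same 6 levels were 4415, 81.9, 77.7, 2523, 239 and 10.1 CPM, since that total is larger. The last of these takes Mir24-1 by the strand in M21, which is not settled. With at least 1 or 100 counts in each library in place of 10, 559 or 240 genes were detected. With copies taken as a shared word of 20 bases, the median of detected genes with a copy was 90.4 CPM in place of 49.2, each a mean over the libraries' medians. Between 135 and 153 genes differed between the libraries. Reads that map to several places limit every level here, and with 2 libraries the SD is itself imprecise. No paired analysis was possible because all samples belong to 1 group.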
